A study of Homo sapiens with 6 samples.

Results

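The period genes PER1, PER2 and PER3, the cryptochromes CRY1 and CRY2, the REV-ERB genes NR1D1 and NR1D2, the transcription factor genes DBP and TEF and the repressor gene BHLHE40 form the repressor arm and the output factors of the circadian clock. They were taken by gene name, which gave 10 of the 58735 genes in the count table, each with a single protein-coding row. All 10 passed the filter on low counts that left 15271 genes for testing. The cells sequenced were SKOV3ip1, a derivative of the human ovarian cancer line SKOV3, labelled as ovarian adenocarcinoma with genotype WT. The 2 groups were cells given BARD1 siRNA (3 libraries) and cells given control siRNA (3 libraries), each transfected with 2 µg of siRNA in a cationic lipid reagent and collected after 48 h. The design asks how loss of BARD1, the RING-domain partner of BRCA1, affects pathways of tumour angiogenesis, and it does not name the clock. Both groups are 1 cell line grown in 1 medium and sampled at 1 time, so a difference in level and a difference in clock phase cannot be told apart. The labels number the libraries as biological replicates, and the siRNAs with the same numbers, without saying whether the libraries came from separate days or whether the numbered siRNAs differ in sequence. They were taken as replicates of 1 treatment, so the p-values rest on the spread among the libraries as labelled.

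In the mammalian clock, the activators CLOCK and BMAL1 (gene ARNTL) bind E-box sequences and switch on the PER and CRY genes, whose proteins return to the nucleus and inhibit the activators. The REV-ERB receptors, products of NR1D1 and NR1D2, form a further loop by repressing ARNTL in competition with the ROR receptors. DBP and TEF, proteins of the PAR bZIP family, carry the rhythm to other genes through D-box sequences, where NFIL3 acts as a repressor. BHLHE40, also called DEC1, binds E-boxes and represses the same targets that CLOCK and BMAL1 activate.

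Library totals were 16661374 to 17743404 counts with BARD1 siRNA and 16621108 to 17704645 counts with control siRNA. BARD1 itself had 96, 110 and 169 counts with BARD1 siRNA and 805, 644 and 887 with control siRNA, 5.98-fold lower after scaling (edgeR adjusted p = 1.21e-15). Of 9 markers of ovarian carcinoma epithelium, ERBB2, KRT8, PAX8, KRT18, KRT7 and EPCAM were expressed, while WT1, MUC16 and CDH1 reached at most 17 counts in a library. The 3 leukocyte markers summed to 2 counts over the BARD1 siRNA libraries and 2 over the control siRNA libraries, with PTPRC and CD3E at 0 in all 6. The 3 endothelial markers summed to 12 counts with BARD1 siRNA and 7 with control siRNA. For the 3 fibroblast markers the sums were 365 with BARD1 siRNA and 288 with control siRNA. Most of these were COL1A1, at 339 and 257, while DCN had 26 and 29 and PDGFRB 0 and 2.

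Most of these clock genes were higher after BARD1 silencing, by very unequal amounts. Of the 10 genes, 7 rose, 2 fell and 1 did not pass the threshold of an adjusted p of 0.05 in edgeR's quasi-likelihood test. NR1D1, BHLHE40 and PER1 had the largest rises, DBP had the largest fall, and the other 6 genes differed by less than 1.5-fold. The median log2 fold change of all 10 genes, BARD1 siRNA over control siRNA, was 0.36, against −0.01 over all tested genes. Of all tested genes 42.3% were called, 22% as higher and 20.3% as lower, so that a call by itself is common in this comparison. Of those calls 51.9% were higher, a share of 41.5% with upper-quartile scaling and 42.2% with library size alone. The libraries of the 2 groups did not overlap for any of the 10 genes in normalised CPM, counts scaled to the library size and corrected for composition. In 8 of them BARD1 siRNA lay above and in 2 below, against 25.8% and 24.7% of all tested genes, or 50.4% in either direction. The 10 genes were chosen with earlier results of these data known, so these comparisons with all tested genes are a description.

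**Figure D1:**
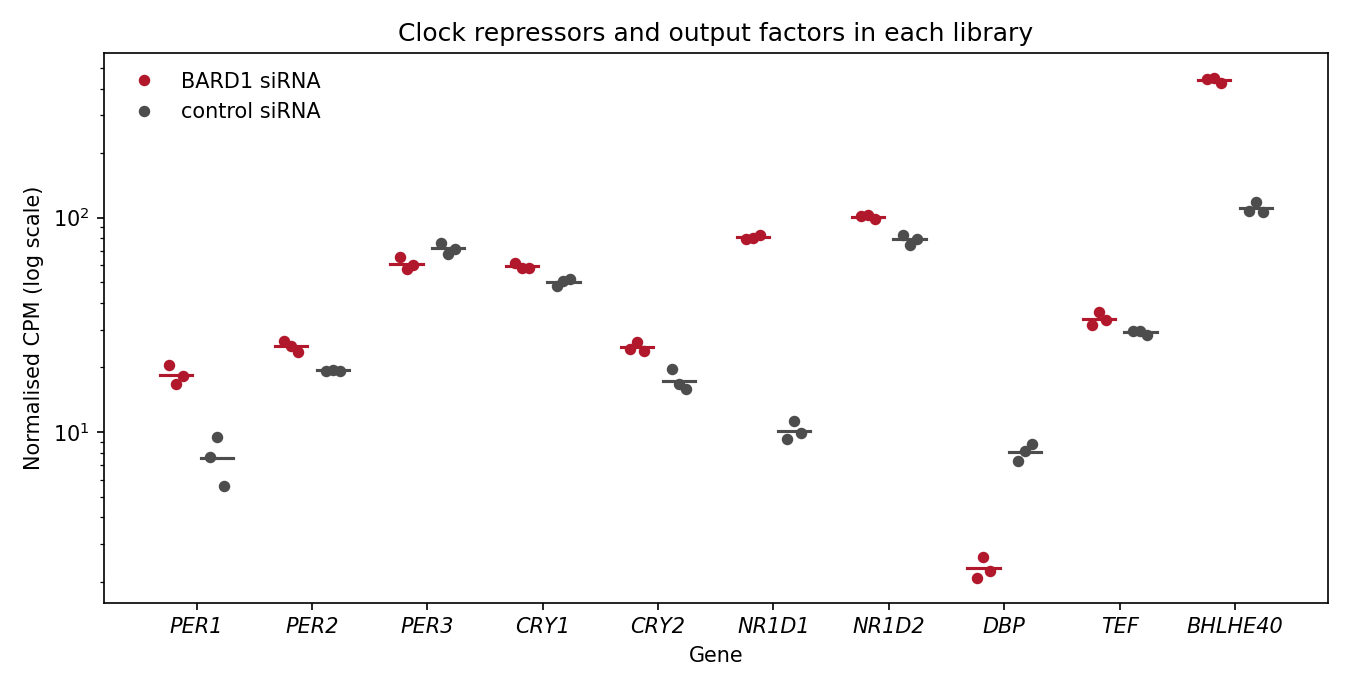
Normalised CPM (log axis) of the 10 clock genes in each library, with BARD1 siRNA in red to the left of control siRNA in grey; each point is a library and each bar the mean of 3. NR1D1 sits near 80.9 CPM with BARD1 siRNA and near 10.1 CPM with control siRNA, DBP lies lower with BARD1 siRNA, and PER3 is the other gene whose BARD1 siRNA libraries lie below the control siRNA libraries.

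**Figure D2:**
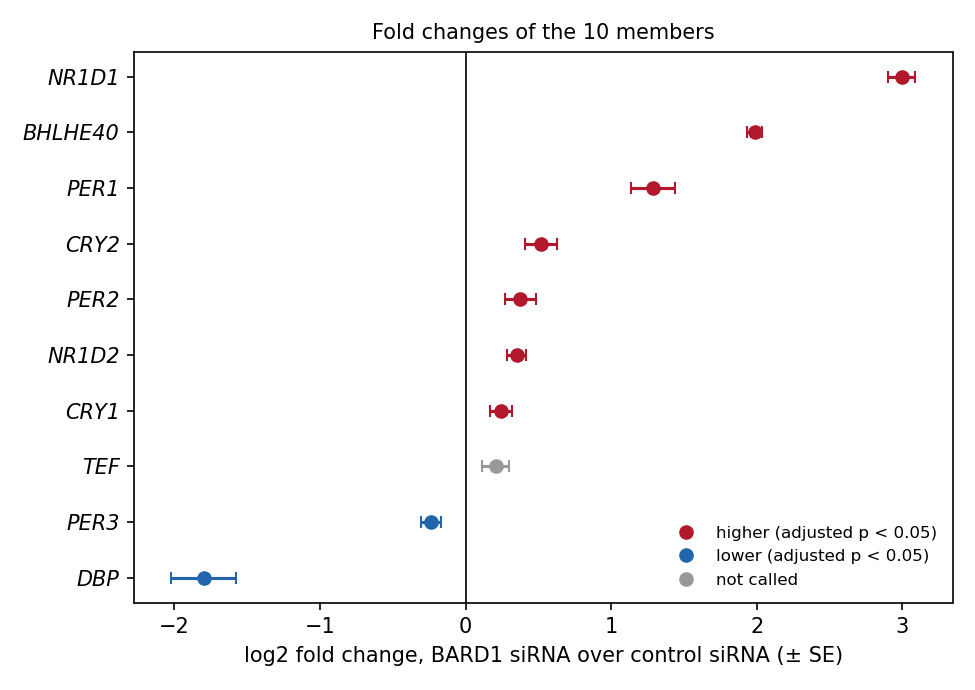
Log2 fold change of each of the 10 genes, BARD1 siRNA over control siRNA, with its standard error (SE) and ordered by size. Red marks the 7 genes called higher, blue the 2 called lower and grey TEF, which did not pass the threshold.

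The REV-ERB genes showed the widest gap between paralogs. Gene coordinates are those of the deposited table, on GRCh38. NR1D1 (ENSG00000126368, chr17:40092787-40100725, minus strand), which encodes REV-ERB alpha, was measured at 79.2, 80.3 and 83.1 CPM with BARD1 siRNA, against 9.28, 11.2 and 9.93 CPM with control siRNA. The BARD1 siRNA libraries lay close together and far above every control siRNA library. NR1D1 rose 7.98-fold (log2 fold change 3.00, SE 0.09, edgeR adjusted p = 1.59e-32), and 66 of the 15271 tested genes had a larger log2 fold change. NR1D2 (ENSG00000174738, chr3:23945260-23980618, plus strand), which encodes REV-ERB beta, stood at 102, 102 and 98.9 CPM with BARD1 siRNA and at 82.9, 74.9 and 79.8 CPM with control siRNA. Its groups were separate but close, and it rose 1.28-fold (log2 fold change 0.35, SE 0.06, edgeR adjusted p = 6.47e-06). NR1D1 shares 263 exon bases, 9.49% of its own, with THRA, the thyroid hormone receptor gene on the opposite strand, and the labels do not say whether reads were counted by strand. THRA was measured at 97.3 ± 4.03 CPM with BARD1 siRNA and 76.1 ± 6.70 CPM with control siRNA (SD, n = 3 each), with a log2 fold change of 0.36 (SE 0.07, edgeR adjusted p = 1.27e-05). Reads of the shared bases cannot be assigned with certainty, and their part in the NR1D1 value was not tested.

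The period genes, whose proteins carry the CRY repressors into the nucleus, went in opposite directions. PER1 (ENSG00000179094, chr17:8140472-8156506, minus strand), a period gene that also responds to acute signals such as glucocorticoids and cAMP, had 332, 284 and 316 counts with BARD1 siRNA and 135, 161 and 101 with control siRNA. Every BARD1 siRNA library was higher, although its control siRNA libraries were, in proportion to their mean, the most spread of the 10 genes. In normalised values PER1 averaged 18.5 ± 1.83 CPM with BARD1 siRNA and 7.58 ± 1.93 CPM with control siRNA (SD, n = 3 each), a 2.44-fold rise (log2 fold change 1.29, SE 0.15, edgeR adjusted p = 4.97e-10). PER2 (ENSG00000132326, chr2:238244038-238290102, minus strand), the period gene needed for a stable rhythm in mice, was measured at 26.7, 25.1 and 23.6 CPM with BARD1 siRNA and at 19.3, 19.4 and 19.4 CPM with control siRNA. It rose 1.30-fold, with the groups apart (log2 fold change 0.38, SE 0.11, edgeR adjusted p = 0.00299). PER3 (ENSG00000049246, chr1:7784320-7845177, plus strand), the period gene least needed for the rhythm itself in mice, stood at 65.4, 57.6 and 60.0 CPM with BARD1 siRNA and at 76.1, 68.0 and 71.7 CPM with control siRNA. It fell by 0.24 on the log2 scale (SE 0.07, edgeR adjusted p = 0.00512), a small change in which the highest BARD1 siRNA library came near the lowest control siRNA library. Without BARD1 siRNA replicate 2 that call was lost, at an edgeR adjusted p of 0.0564. On the other strand, PER3 shares 868 exon bases, 10.7% of its own, with UTS2 and 482, or 5.95%, with the antisense transcript Z98884.1. These had at most 1 and 10 counts in a library. Reads of the shared bases cannot be assigned with certainty, and their part in the PER3 value was not tested.

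Both cryptochrome genes, which encode the strongest inhibitors of CLOCK and BMAL1, rose modestly. CRY1 (ENSG00000008405, chr12:106991364-107093829, minus strand) was measured at 61.4, 58.5 and 58.0 CPM with BARD1 siRNA and at 48.1, 50.6 and 51.9 CPM with control siRNA, a 1.18-fold rise (log2 fold change 0.24, SE 0.08, edgeR adjusted p = 0.00741). With upper-quartile scaling the CRY1 call was lost, at a log2 fold change of 0.18 and an edgeR adjusted p of 0.0518. CRY2 (ENSG00000121671, chr11:45847118-45883248, plus strand) stood at 24.5, 26.2 and 23.9 CPM with BARD1 siRNA and at 19.6, 16.7 and 15.9 CPM with control siRNA. All 3 libraries with BARD1 siRNA were above those with control siRNA, and CRY2 rose 1.43-fold (log2 fold change 0.52, SE 0.11, edgeR adjusted p = 0.000116).

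BHLHE40 (ENSG00000134107, chr3:4979116-4985323, plus strand) was the most abundant of the 10 genes in both groups and had the second largest rise. It had 7183, 7571 and 7385 counts with BARD1 siRNA, against 1897, 2011 and 1909 with control siRNA. The libraries of a group agreed closely, and the groups were far apart. After scaling these were 438 ± 12.5 CPM with BARD1 siRNA and 111 ± 6.51 CPM with control siRNA (SD, n = 3 each), a 3.96-fold rise (log2 fold change 1.99, SE 0.05, edgeR adjusted p = 1.83e-35). BHLHE40 is also induced by hypoxia and other stresses in many cell types. Its paralog BHLHE41 (DEC2) was far scarcer, at 5.40 ± 1.30 CPM with BARD1 siRNA and 4.03 ± 0.607 CPM with control siRNA, and did not pass the threshold (log2 fold change 0.42, SE 0.23, edgeR adjusted p = 0.131). Its counts were 77, 77 and 120 with BARD1 siRNA, and without BARD1 siRNA replicate 3, the highest, the log2 fold change was 0.20.

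Among the D-box factors DBP fell, while TEF did not pass the threshold. DBP (ENSG00000105516, chr19:48630030-48637438, minus strand), a PAR bZIP activator that is a direct E-box target of CLOCK and BMAL1 in mice, had 34, 44 and 39 counts with BARD1 siRNA and 128, 139 and 158 with control siRNA. Each BARD1 siRNA library held well under the lowest control siRNA count. DBP averaged 2.31 ± 0.264 CPM with BARD1 siRNA and 8.07 ± 0.743 CPM with control siRNA (SD, n = 3 each), 3.48-fold lower (log2 fold change of −1.80 with an SE of 0.22; edgeR adjusted p = 1.5e-09). Of all tested genes 59 had a smaller log2 fold change. DBP shares 661 exon bases, 10.1% of its own, with SPHK2 on the opposite strand. SPHK2 was measured at 13.5 ± 1.41 CPM with BARD1 siRNA and 15.05 ± 1.21 CPM with control siRNA and was not called (edgeR adjusted p = 0.35). SPHK2 had 216 to 245 counts with BARD1 siRNA and 247 to 282 with control siRNA, more than DBP in every library. Reads of these shared bases cannot be assigned with certainty either, and their part in the DBP level and fold change was not tested. TEF (ENSG00000167074, chr22:41367333-41399326, plus strand), the paralog of DBP, stood at 31.6, 36.4 and 33.2 CPM with BARD1 siRNA and at 29.6, 29.7 and 28.4 CPM with control siRNA. Its groups were separate, yet the difference did not pass the threshold (log2 fold change 0.21, SE 0.09, edgeR adjusted p = 0.0697). HLF, the remaining family member, had 6 to 19 counts with BARD1 siRNA and 10 to 20 with control siRNA. NFIL3, the repressor that competes at the same D-boxes, rose 2.43-fold to 42.1 ± 3.87 CPM with BARD1 siRNA, against 17.3 ± 0.911 CPM with control siRNA (edgeR adjusted p = 6.29e-16). Within each library the ratio of NFIL3 counts to DBP counts was 21.8, 14.7 and 18.2 with BARD1 siRNA and 2.45, 1.99 and 2.03 with control siRNA, a pair chosen after the values were seen.

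Promoter sequences are shown for the 3 genes with the largest rises, for DBP, which fell most, and for the second start of NR1D2, whose window held the most matches. They are RefSeq windows on GRCh38.p14, from 250 bases before to 50 bases after a transcription start, printed 5′ to 3′ on the strand of the gene with motif matches in capitals.
NR1D1 (chr17:40100540-40100839, minus strand): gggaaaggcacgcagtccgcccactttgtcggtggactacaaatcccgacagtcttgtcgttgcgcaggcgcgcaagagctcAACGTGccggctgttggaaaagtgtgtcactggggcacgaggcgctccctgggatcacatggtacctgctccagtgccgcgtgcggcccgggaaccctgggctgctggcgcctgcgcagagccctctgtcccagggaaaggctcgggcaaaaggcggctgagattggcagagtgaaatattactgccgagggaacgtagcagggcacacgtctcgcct
BHLHE40 (chr3:4979187-4979486, plus strand): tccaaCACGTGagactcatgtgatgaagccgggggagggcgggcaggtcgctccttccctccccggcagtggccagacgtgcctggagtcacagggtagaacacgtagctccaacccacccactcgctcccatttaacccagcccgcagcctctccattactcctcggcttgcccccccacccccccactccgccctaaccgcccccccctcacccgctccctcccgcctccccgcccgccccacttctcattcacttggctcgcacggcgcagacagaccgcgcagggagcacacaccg
PER1 (chr17:8152355-8152654, minus strand): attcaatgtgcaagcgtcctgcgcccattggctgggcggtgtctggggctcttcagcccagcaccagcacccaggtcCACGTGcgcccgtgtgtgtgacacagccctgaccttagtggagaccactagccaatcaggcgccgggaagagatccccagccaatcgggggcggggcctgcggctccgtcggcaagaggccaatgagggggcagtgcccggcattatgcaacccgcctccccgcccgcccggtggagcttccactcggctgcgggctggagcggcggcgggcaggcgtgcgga
DBP (chr19:48637330-48637629, minus strand): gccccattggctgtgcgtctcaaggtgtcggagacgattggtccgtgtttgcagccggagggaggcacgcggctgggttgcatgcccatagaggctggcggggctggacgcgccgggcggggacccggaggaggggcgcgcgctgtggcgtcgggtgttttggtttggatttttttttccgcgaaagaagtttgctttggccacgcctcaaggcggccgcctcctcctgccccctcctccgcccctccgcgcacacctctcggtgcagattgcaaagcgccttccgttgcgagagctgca
NR1D2 (chr3:23945871-23946170, plus strand): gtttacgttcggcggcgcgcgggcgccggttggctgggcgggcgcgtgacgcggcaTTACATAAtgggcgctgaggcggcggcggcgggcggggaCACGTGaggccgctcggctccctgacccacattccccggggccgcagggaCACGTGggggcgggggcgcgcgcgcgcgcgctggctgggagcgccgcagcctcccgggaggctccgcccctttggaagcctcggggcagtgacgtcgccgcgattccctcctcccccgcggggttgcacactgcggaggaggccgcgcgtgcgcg
All 10 genes had a window in the table, and PER3, CRY2, NR1D2 and TEF had 2, which gave 14 windows. Their median GC content was 69.3%, against 58.7% over all windows, and matches were not compared at like GC content. The E-box CACGTG, which reads the same on both strands, lay in 5 of the 14 windows and in 7.26% of all 35116 windows. Those 5 belonged to PER1, NR1D2, TEF and BHLHE40. The E-box variant CACGTT lay on either strand in 4 of the 14 windows and in 5.34% of all windows. Those 4 belonged to PER2, CRY1, CRY2 and NR1D1, and the variant was searched after the sequences had been seen. In the NR1D1 window shown it appears on the reverse strand, as AACGTG. The D-box TTACGTAA was found in 1 of the 14 windows, that of PER2, against 0.125% of all windows. The D-box TTATGTAA was found in 2 of the 14, from PER3 and NR1D2, against 0.886%. In NR1D2 that D-box is read from the reverse strand, as TTACATAA. No window of the 10 genes held the cAMP response element TGACGTCA or the C/EBP-ATF element TGATGCAA, found in 1.85% and 0.866% of all windows. The DBP window held none of the 6 motifs. The E-box CACGTG lay in windows of PER1 and BHLHE40, which rose more than 2-fold, NR1D2, which rose 1.28-fold, and TEF, which was not called. The window of NR1D1, which rose most, held the variant CACGTT alone. A match in these letters is a description, not a binding site.

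Levels were compared between genes as CPM per kb of the deposited gene length. The order depends on that length, which for DBP, at 6544 bases, counts all annotated exon bases of the gene. With BARD1 siRNA the order was BHLHE40 at 114 ± 3.26, NR1D1 at 29.2 ± 0.731, NR1D2 at 17.4 ± 0.322, CRY1 at 11.7 ± 0.369, PER3 at 7.53 ± 0.491, TEF at 7.15 ± 0.513, CRY2 at 4.01 ± 0.196, PER2 at 3.65 ± 0.221, PER1 at 2.64 ± 0.261 and DBP at 0.354 ± 0.0404 CPM per kb (SD, n = 3). With control siRNA it was BHLHE40 at 28.8 ± 1.70, NR1D2 at 13.6 ± 0.691, CRY1 at 9.91 ± 0.377, PER3 at 8.88 ± 0.502, TEF at 6.20 ± 0.154, NR1D1 at 3.66 ± 0.355, PER2 at 2.82 ± 0.00981, CRY2 at 2.80 ± 0.316, DBP at 1.23 ± 0.113 and PER1 at 1.08 ± 0.275 CPM per kb (SD, n = 3). NR1D1 thus stood at rank 2 with BARD1 siRNA and at rank 6 with control siRNA, the largest move in the order. Neighbours whose libraries overlapped were PER3 with TEF and CRY2 with PER2 with BARD1 siRNA, and PER2 with CRY2 and DBP with PER1 with control siRNA. The order of those pairs is therefore not settled by these libraries.

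In the period and PAR bZIP families the summed levels of the groups, scaled by deposited length, overlapped. The shares of PER1, PER2, PER3, DBP and TEF in them did not, while that of HLF did. The summed level of the period genes was 13.2 to 14.9 CPM per kb with BARD1 siRNA and 12.5 to 13.3 CPM per kb with control siRNA, ranges that overlap. Within that sum PER1 held 18.3% to 19.6% with BARD1 siRNA and 6.42% to 10.7% with control siRNA, while PER3 held 54.0% to 55.2% with BARD1 siRNA and 66.8% to 71.0% with control siRNA. For the cryptochromes the sum was higher, at 15.3 to 16.1 CPM per kb with BARD1 siRNA and 12.7 to 12.8 CPM per kb with control siRNA, but the share of CRY1 overlapped, at 73.2% to 75.4% with BARD1 siRNA and 75.1% to 80.0% with control siRNA. For the REV-ERB genes the sum was higher as well, at 46.1 to 47.0 CPM per kb with BARD1 siRNA and 16.9 to 17.6 CPM per kb with control siRNA. NR1D1 made up 62.0% to 63.8% of it with BARD1 siRNA and 19.0% to 23.9% with control siRNA. The predominant REV-ERB gene thus differed between the groups, but only after division by the deposited lengths, 2772 bases for NR1D1 and 5820 for NR1D2. In CPM NR1D2 was higher in both groups, at 101 against 80.9 for NR1D1 with BARD1 siRNA and 79.2 against 10.1 with control siRNA. The summed PAR bZIP level was 7.12 to 8.17 CPM per kb with BARD1 siRNA and 7.48 to 7.73 CPM per kb with control siRNA. By deposited length, DBP was 4.49% to 4.88% of it with BARD1 siRNA and 14.9% to 17.9% with control siRNA. TEF supplied most of the rest in both groups. These sums and shares rest on the deposited lengths, 6544 bases for DBP and 4715 for TEF, which count all annotated exon bases. Their values at the length of a single transcript were not tested.

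**Figure D3:**
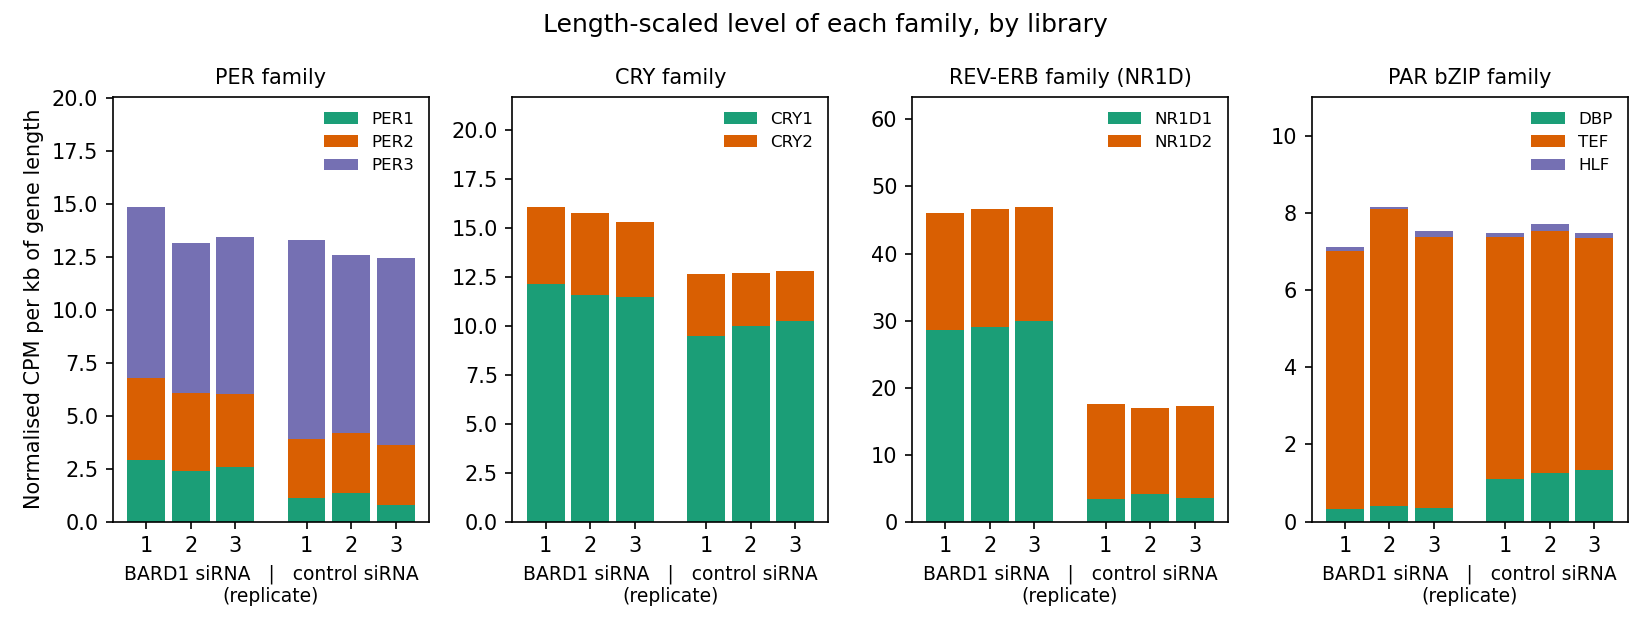
Stacked bars of normalised CPM per kb of gene length for the period, cryptochrome, REV-ERB and PAR bZIP families in each library, with the 3 BARD1 siRNA libraries to the left of the 3 control siRNA libraries. The REV-ERB sum is 46.1 to 47.0 with BARD1 siRNA and 16.9 to 17.6 with control siRNA, mostly through NR1D1, and the cryptochrome sum is also higher with BARD1 siRNA, while the period and PAR bZIP sums overlap between the groups.

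Ratios of paralogs within a library do not depend on how libraries are scaled, and 7 pairs were compared. The NR1D1/NR1D2 count ratio was 0.779, 0.784 and 0.841 with BARD1 siRNA and 0.112, 0.150 and 0.125 with control siRNA, a difference of 2.64 in mean log2 ratio (SE 0.13). The DBP/TEF ratio was 0.0671, 0.0724 and 0.0684 with BARD1 siRNA and 0.247, 0.275 and 0.309 with control siRNA, a difference of −1.99 (SE 0.10). All 3 libraries with BARD1 siRNA were thus higher for NR1D1 against its paralog and lower for DBP against its own. PER1/PER3 differed by 1.55 (SE 0.24), PER1/PER2 by 0.94 (SE 0.23), PER2/PER3 by 0.61 (SE 0.07) and BHLHE40/BHLHE41 by 1.58 (SE 0.25) on the log2 scale. The groups did not overlap in 6 of the pairs, and each reached p = 0.10 in the two-sided exact permutation test, the smallest that 3 against 3 libraries allow (0.117 adjusted over the 7 pairs). CRY1/CRY2 was 2.51, 2.23 and 2.42 with BARD1 siRNA and 2.45, 3.03 and 3.27 with control siRNA, with overlapping groups (difference −0.28, SE 0.13, exact permutation p = 0.20).

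The rest of the clock was described from 4 lists of 34 genes, of which 32 were tested. Of the activators, ARNTL rose 1.52-fold to 18.1 ± 0.441 CPM with BARD1 siRNA, against 11.9 ± 0.699 CPM with control siRNA (edgeR adjusted p = 8.01e-05). This is the gene that REV-ERB proteins repress, and it was higher in the same libraries as NR1D1. Only transcripts were measured, at 1 time, so repression of ARNTL by REV-ERB proteins was not tested. ARNTL2, a paralog of ARNTL, was much more abundant and rose 1.30-fold, to 276 ± 1.43 CPM with BARD1 siRNA and 213 ± 9.48 CPM with control siRNA (edgeR adjusted p = 1.32e-08). CLOCK itself fell by 0.23 on the log2 scale (edgeR adjusted p = 0.0106), a call lost without control siRNA replicate 1, at 0.167. NPAS2, which can replace CLOCK, had a log2 fold change of 0.28 (edgeR adjusted p = 0.0348) and lost its call in 8 of 16 alternative analyses. RORA, an activator of ARNTL, had 19 to 29 counts with BARD1 siRNA and 13 to 33 with control siRNA and was not called (edgeR adjusted p = 0.896). Of the 5 tested activators 3 rose and 1 fell, beside 22% higher and 20.3% lower over all tested genes. The median log2 fold change was 0.28, against −0.01 over all tested genes.

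Among other repressors and D-box factors 2 of 6 rose and 1 fell, beside 22% higher and 20.3% lower over all tested genes. The log2 fold changes had a median of 0.18, against −0.01 over all tested genes. Besides NFIL3, CIART (CHRONO), a repressor of CLOCK and BMAL1, rose 1.43-fold to 8.90 ± 0.258 CPM with BARD1 siRNA, against 6.22 ± 0.540 CPM with control siRNA (edgeR adjusted p = 0.0128). Its call was lost without control siRNA replicate 1, at 0.0559. TIMELESS, which also protects replication forks, fell by 0.47 on the log2 scale, to 165 ± 5.59 CPM with BARD1 siRNA and 229 ± 5.69 CPM with control siRNA (edgeR adjusted p = 8.37e-11). CIPC, an inhibitor of CLOCK, was not called, with a log2 fold change of −0.07 that lay between −0.14 without control siRNA replicate 1 and −0.018 without control siRNA replicate 2. HLF was not called either, at −0.28, and its direction turned when single libraries were left out, to 0.03 without BARD1 siRNA replicate 2 or without control siRNA replicate 2.

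Of 12 modifiers of clock proteins 7 rose and 1 fell, beside 22% higher and 20.3% lower over all tested genes. The median was 0.19 on the log2 scale, against −0.01 over all tested genes. CSNK1E, a casein kinase that phosphorylates PER proteins, rose 1.96-fold to 120 ± 5.76 CPM with BARD1 siRNA, against 61.3 ± 7.65 CPM with control siRNA (edgeR adjusted p = 3.44e-16). The deacetylase gene SIRT1 rose by 0.43 on the log2 scale. USP2, a deubiquitinase gene that is itself under clock control in mice, had 47, 51 and 52 counts with BARD1 siRNA and 115, 111 and 152 with control siRNA. It fell by 1.27 on the log2 scale (SE 0.22, edgeR adjusted p = 3.1e-06), so that USP2 and DBP were the 2 genes among the 10 and the 4 lists that fell by more than 2-fold. With upper-quartile scaling or library size alone, 3 modifiers fell, USP2, USP7 and PRKAA2.

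Of 9 genes reported as clock-controlled 8 rose and 0 fell, beside 22% higher and 20.3% lower over all tested genes. The median log2 fold change was 0.51, against −0.01 over all tested genes. CDKN1A, the cell cycle inhibitor gene that NR1D1 represses in mouse liver cells, rose 9.49-fold to 121 ± 4.03 CPM with BARD1 siRNA, against 12.8 ± 1.01 CPM with control siRNA (edgeR adjusted p = 8.85e-37). The zinc finger genes KLF9 and KLF10 rose 3.02-fold and 2.51-fold. WEE1, which encodes a mitotic kinase and is an E-box target in mouse liver, had a log2 fold change of 0.02 and was not called (edgeR adjusted p = 0.857). These lists were chosen with earlier results of the data known, several of their genes answer to other pathways as well, and their share of called genes stands beside 42.3% over all tested genes.

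**Figure D4:**
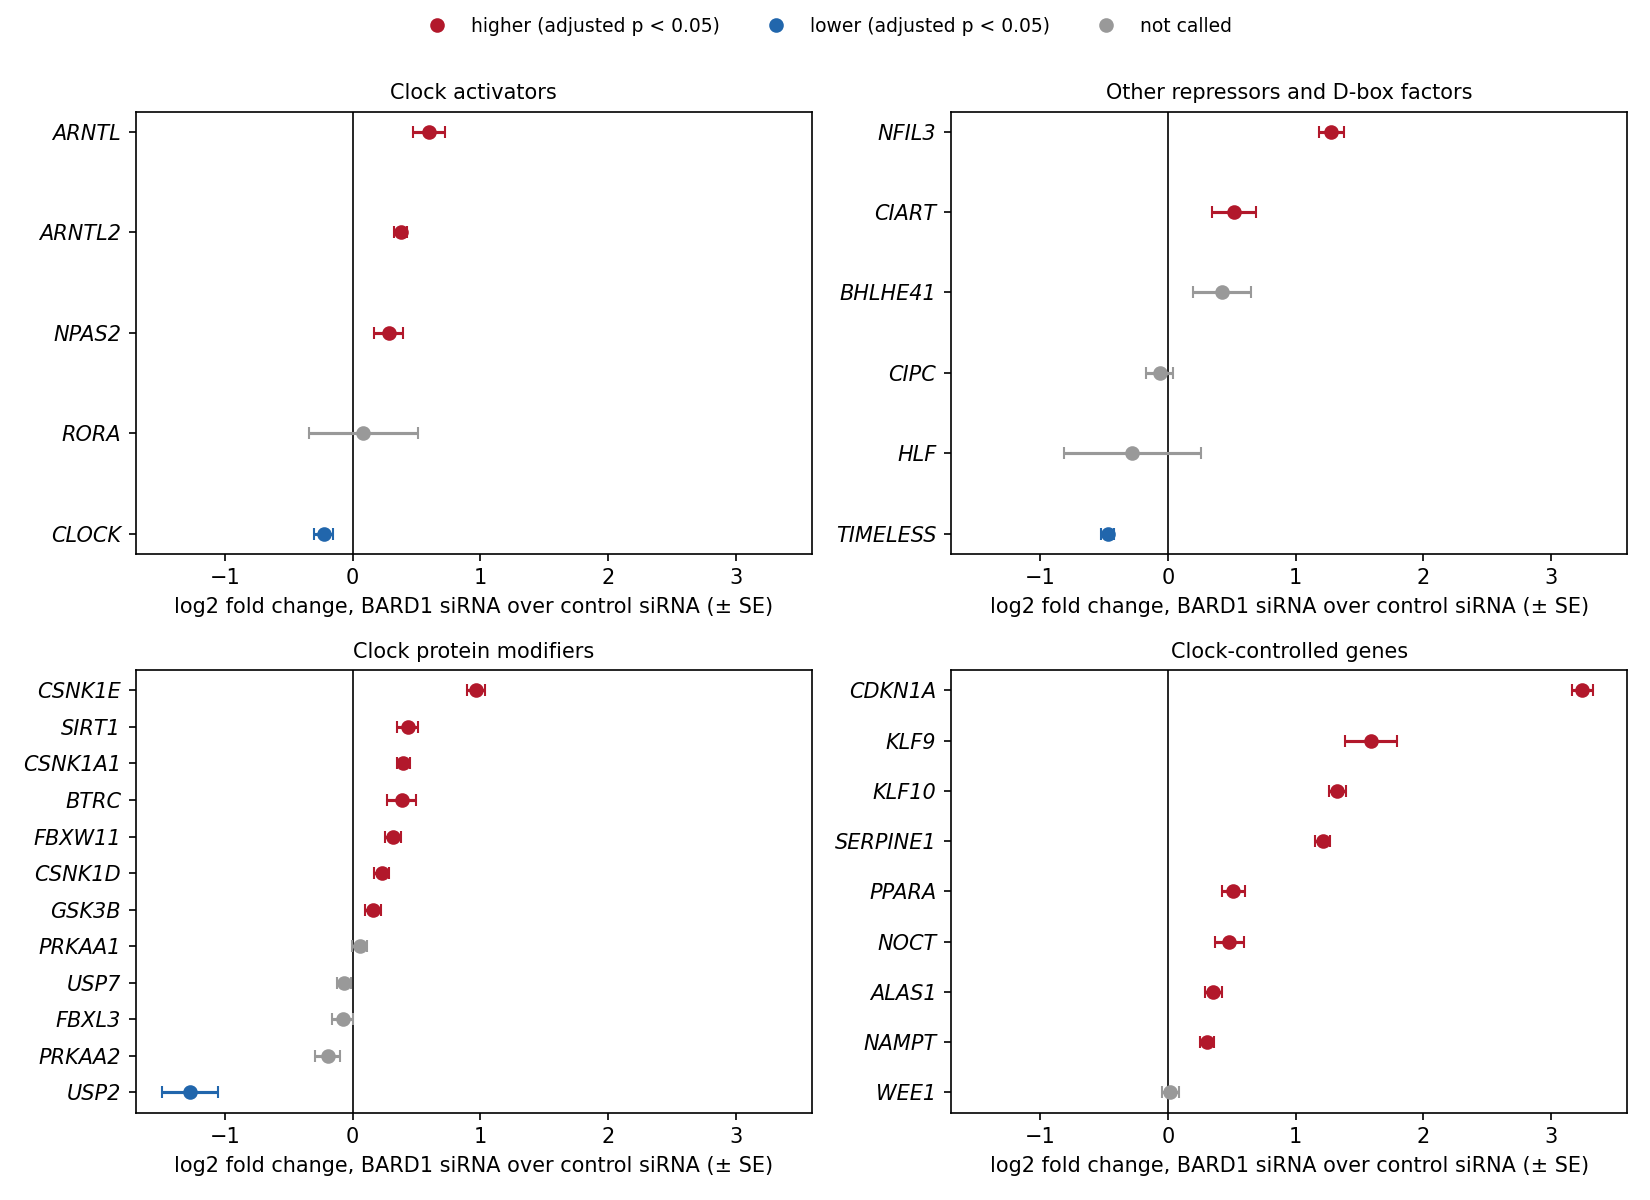
Log2 fold change, BARD1 siRNA over control siRNA, with its SE for the tested genes of 4 lists of other clock genes; red marks genes called higher, blue genes called lower and grey genes not called. CDKN1A lies farthest to the right at 3.25 and USP2 farthest to the left at −1.27, while CLOCK and ARNTL lie on opposite sides of 0.

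Genes outside these lists were ranked by how near their profile over the 6 libraries, in log2 CPM centred on the control siRNA mean, lay to that of NR1D1 or DBP. Among 10796 protein-coding genes whose mean log2 CPM reached 2, those nearest to NR1D1 were ZC3H12A, G0S2 and MAFF, with root mean square distances of 0.0681, 0.0962 and 0.101. ZC3H12A, an endoribonuclease that limits inflammatory transcripts, averaged 260 ± 6.26 CPM with BARD1 siRNA and 34.5 ± 2.82 CPM with control siRNA. Those nearest to DBP were ID1, ID4 and CDH16, at distances of 0.0891, 0.132 and 0.135. ID1 and ID4 encode inhibitors of bHLH transcription factors, and ID4 averaged 24.3 ± 2.95 CPM with BARD1 siRNA and 75.9 ± 3.23 CPM with control siRNA. With 2 groups of 3 libraries, a small distance mostly reflects a like difference between the groups.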

How the data were processed

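The deposited table holds raw counts per gene for 6 libraries, whole numbers that the authors did not normalise. The submitters' processing notes name CASAVA, HISAT2 and GRCh38 (hg38). Tool versions, the read counter, its annotation and its strand setting are not given there. Another deposited column gives each gene's length in bases. The 10 genes have the same start and end in the table as in GENCODE release 29, from which exon overlaps were computed.

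Counts were tested with edgeR 4.0.16 in R 4.3.3 by the robust quasi-likelihood test, with TMM factors, group as the sole term and filterByExpr (minimum count 10, minimum total 15). P-values of all 15271 tested genes were adjusted together by Benjamini-Hochberg, with a threshold of 0.05. The SE is the size of the log2 fold change over the root of F. Ratios used counts plus 0.5. Library totals are given with the results; the biological coefficient of variation was 7.19%. Replicate libraries differed by more than sampling noise, with a chi-square per degree of freedom of 3.29 to 7.71.

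The members and lists were chosen with earlier results of these data known. Named genes are all 10 members, BARD1, all tested activators and other repressors, the 3 called genes of each further list that changed most, and the 3 nearest profiles of NR1D1 and DBP; NFIL3/DBP, USP7, PRKAA2 and WEE1 were added after values were seen. Results were also computed with upper-quartile, RLE and plain library-size scaling, other filters on low counts, protein-coding genes alone, DESeq2 1.42.0, limma-voom (limma 3.58.1), no robust estimation, a replicate block, other added counts for ratios and leaving out each library.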

Additional observations from a re-analysis of the deposited data

How the results depend on the processing

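Over 16 alternative analyses, 8 of the 10 clock genes kept their direction and their side of the threshold throughout, NR1D1 between 2.93 and 3.07, BHLHE40 between 1.92 and 2.03, PER1 between 1.10 and 1.47 and DBP between −1.89 and −1.74 on the log2 scale. The exceptions were CRY1 with upper-quartile scaling, at 0.18 (edgeR adjusted p = 0.0518), and PER3 without BARD1 siRNA replicate 2 (edgeR adjusted p = 0.0564); the cause was not tested. Leaving out a library put PER3 between −0.29 and −0.20, the members called lower at 1 to 2, the activators called lower at 0 to 1 and the other repressors called higher at 1 to 2. Of 20 named genes of the other lists 12 kept direction and call. Under upper-quartile scaling and under library size alone, 3 modifiers were lower in place of 1. Those scalings shifted all genes by −0.0654 and −0.0598 on the log2 scale, and 41.5% and 42.2% of their calls were higher, against 51.9%. Direction turned in 3 genes that were not called. WEE1 stood at −0.047 and −0.042 under those scalings and between −0.016 and 0.055 when a library was left out. RORA then ranged from −0.22 to 0.35 and HLF from −0.79 to 0.032. Length-scaled levels with library size alone moved by more than 1 SD for PER2, at 2.87 CPM per kb with control siRNA, and NR1D2, at 17.0 CPM per kb with BARD1 siRNA. Same-numbered libraries showed no shared deviation, with correlations across genes of −0.0218 to −0.00906. Libraries with different numbers gave −0.0102 to 0.026. Such small correlations cannot show whether same-numbered libraries were prepared together, which the labels do not say. The replicate block gave 3390 genes higher and 3122 lower, against 3355 and 3107 without it, with 7 of the clock genes higher and 2 lower in either case. DBP rests on 34 to 44 counts per library with BARD1 siRNA, which limits the precision of its fold change.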
